A study of Mus musculus with 3 samples.

Results

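The circadian clock genes described here were the 10 genes Arntl, Clock, Per1, Per2, Per3, Nr1d1, Nr1d2, Ciart, Dbp and Tef, out of 32285 genes measured. They were taken by symbol as core loop and output genes of the molecular clock, and all 10 were found. UMIs (unique molecular identifiers, each standing for 1 captured transcript) were summed per cell class and library and given per 1000000 UMIs of that class and library (CPM). The question was whether the activating and the repressing genes of the clock each shifted alike in every cell class. These groups need not shift in the same direction, since products of the repressing genes repress Arntl. Harvest time and glucocorticoids act on the whole animal, and their part was not tested.

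The molecular clock is a transcriptional feedback loop that runs in nearly every cell of the body. BMAL1, encoded by Arntl, and CLOCK form the positive limb: as a dimer they bind E-box elements and activate the Per, Nr1d, Ciart, Dbp and Tef genes, whose products feed back on the dimer, repress Arntl or drive D-box output genes. In brain tissue the loop also runs in glia and vascular cells, and glucocorticoids can set its phase, in part through direct induction of Per1.

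The study profiled single brain cells after transient ischemic attack (TIA), modelled by filament occlusion of the middle cerebral artery for 5 min. All 3 libraries came from the ipsilateral hemisphere of genotype WT mice of strain C57BL6J, which were males of 10 to 12 weeks of age as the methods and legends give them, and each library pooled 3 mice. The libraries were from naïve mice, from mice 24 h after TIA and from mice 3 d after TIA. The label of the control group is naïve, while the legends of the study name this control both naïve and sham. Whether it shared surgery and anesthesia with the TIA mice is therefore not known, and the clock time of harvest is not given in the sources used here.

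The deposited matrices held 4804 cells and 37987228 UMIs for naïve, 1619 cells and 12919691 UMIs for 24 h, and 5505 cells and 48636436 UMIs for 3 d. Cells with at least 500 genes and at most 7% mitochondrial UMIs numbered 4018, 1225 and 4781. With 1 library per condition, library and condition cannot be told apart, cells are not replicates, and no test across conditions was made. The 95% intervals below cover counting error only. Barcodes shared between libraries numbered 3 for naïve and 24 h, 8 for naïve and 3 d, and 4 for 24 h and 3 d.

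After clustering, 7 cell classes had at least 50 cells in every library. Their own markers were checked first. Summed microglial markers stood at 21285 CPM in naïve microglia, against 743 CPM in naïve astrocytes, and astrocytic markers at 16778 CPM in naïve astrocytes, against 365 CPM in naïve microglia. Oligodendrocyte markers reached 37201 CPM, endothelial markers 22365 CPM and pericyte markers 28544 CPM in the naïve cells of their own class. The neuron-like class (11261 CPM of neuronal markers) was led by genes such as Adarb2, Grik3 and Nxph1, and the progenitors, led by the cycling genes Top2a and Mki67, held 5526 CPM of neuronal beside 4902 CPM of progenitor markers. The 24 h library gave the fewest cells in every class but pericytes, from 54 progenitors and 72 oligodendrocytes to 284 microglia. Pericytes numbered 159 in naïve, 182 at 24 h and 328 at 3 d.

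The summed level of the repressing and output genes was higher after TIA in 6 of the 7 classes, most in endothelial cells and pericytes, while the positive limb was lower in those vascular classes at both times and differed in direction among the other classes. In microglia only Per1 and Nr1d2 among the 8 genes had intervals above 0. In astrocytes at 24 h only Per1, Per2, Nr1d1 and Ciart did. In oligodendrocytes at 24 h only Per1 and Tef did, among those with enough UMIs. In progenitors at 24 h the sum was not apart from naïve without the 5 cells richest in each gene, as given below. Those 5 cells are a larger share of the 54 progenitors at 24 h than of the 227 in naïve, so the cut takes more from 24 h. Without the 2% of cells richest in each gene, this sum did not move beyond its error. In endothelial cells the summed level of Per1, Per2, Per3, Nr1d1, Nr1d2, Ciart, Dbp and Tef was 201 CPM in naïve, 440 CPM at 24 h and 405 CPM at 3 d. The log2 ratios against naïve were 1.13 (0.93 to 1.33) and 1.01 (0.83 to 1.19). In pericytes the same sum was 347, 612 and 668 CPM, with log2 ratios of 0.82 (0.61 to 1.04) and 0.95 (0.74 to 1.15). Both TIA libraries thus lay above the naïve library in the vascular classes by more than counting error.

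The summed positive limb, Arntl and Clock, went the other way in these cells. It was 181 CPM in naïve endothelial cells, 145 CPM at 24 h and 155 CPM at 3 d, with log2 ratios of -0.33 (-0.60 to -0.06) and -0.23 (-0.45 to -0.01). In pericytes it was 214, 167 and 152 CPM, with log2 ratios of -0.36 (-0.69 to -0.04) and -0.49 (-0.79 to -0.19). All of these intervals lay below 0, the 3 d interval of endothelial cells only just.

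In the glial classes and progenitors the sum of the repressing and output genes was also higher. The sum in microglia was 173 CPM in naïve, 234 CPM at 24 h and 205 CPM at 3 d, with log2 ratios of 0.44 (0.31 to 0.57) and 0.24 (0.15 to 0.34). The 24 h value was 0.24 in microglia at or below the median share of other-class markers. With at most 1 UMI of such markers, the 3 d value was 0.79, from only 40 of the 1025 naïve microglia and 34 of the 1276 at 3 d. Without Per1, an alternative chosen after seeing the data, the sum in microglia was not apart from naïve, with log2 ratios of 0.09 (-0.10 to 0.27) and -0.06 (-0.19 to 0.06). Astrocytes, with 591, 726 and 723 CPM, had log2 ratios of 0.30 (0.22 to 0.37) and 0.29 (0.24 to 0.34), and without Per1 these were 0.24 and 0.27. The 24 h rise was not shared by all of the genes. Nr1d1 alone was 117 CPM in naïve astrocytes and 214 CPM at 24 h. Per3, Nr1d2, Dbp and Tef had 24 h ratios from -0.08 to 0.01, with intervals that included 0. Oligodendrocytes had 101, 156 and 157 CPM and log2 ratios of 0.63 (0.36 to 0.89) and 0.65 (0.45 to 0.85). The 24 h value was 0.36 (0.04 to 0.68) without the 5 cells richest in each gene, a larger share of the 72 cells at 24 h than of the 232 in naïve. Without the 2% of cells richest in each gene, it did not move beyond its error. The 3 d value was 0.42 (0.12 to 0.73) in oligodendrocytes at or below the median share of other-class markers. Progenitors had 137, 238 and 190 CPM and log2 ratios of 0.79 (0.56 to 1.02) and 0.47 (0.30 to 0.63). Their 3 d ratio was smaller when cells were clustered without regression, as given under the processing below.

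Neuron-like cells were the exception. Their repressing and output genes summed to 103 CPM in naïve, 83.4 CPM at 24 h and 107 CPM at 3 d, with log2 ratios of -0.31 (-0.66 to 0.03) and 0.06 (-0.14 to 0.25). Neither interval was clear of 0. Both values depended on the cells used. The 24 h value was -0.98 (-1.48 to -0.52) without the 5 cells richest in each gene and 0.51 (-0.46 to 1.42) in cells with at most 1 UMI of other-class markers. Those 5 cells are a larger share of the 109 cells at 24 h than of the 768 in naïve. Without the 2% of cells richest in each gene, the 24 h value did not move beyond its error. The 3 d value fell below 0 without the 5 cells and with at most 1 such UMI, as given under the processing below.

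The positive limb did not move in 1 direction across the classes. In microglia it was 119, 108 and 125 CPM and in oligodendrocytes 124, 137 and 134 CPM, and every interval of the ratio to naïve included 0. In astrocytes it was 143, 130 and 128 CPM, and the 3 d ratio was below 0 at -0.16 (-0.27 to -0.06). In neuron-like cells it was 91.7, 80.3 and 76.6 CPM, with a 3 d ratio of -0.26 (-0.49 to -0.04) that turned to 0.48 (-0.40 to 1.33) in cells with at most 1 UMI of other-class markers. In progenitors it was 98.1, 95.9 and 119 CPM, with a 3 d ratio above 0 at 0.28 (0.08 to 0.48). Opposite movement of the limbs, with both intervals clear of 0, was therefore seen in endothelial cells and pericytes at both times and in astrocytes at 3 d. This holds for Arntl with Clock as the positive limb. The other E-box activator and ROR receptor genes, read below, had median ratios above 0 in these classes at 3 d. In the endothelial cells at or below the median share of other-class markers, described below, the positive limb was not clear of 0 at either time. Its log2 ratios there were about as low as in all endothelial cells, with wider intervals from fewer cells. In progenitors at 3 d both limbs were higher. Whether the classes differed was not tested.

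**Figure D1:**
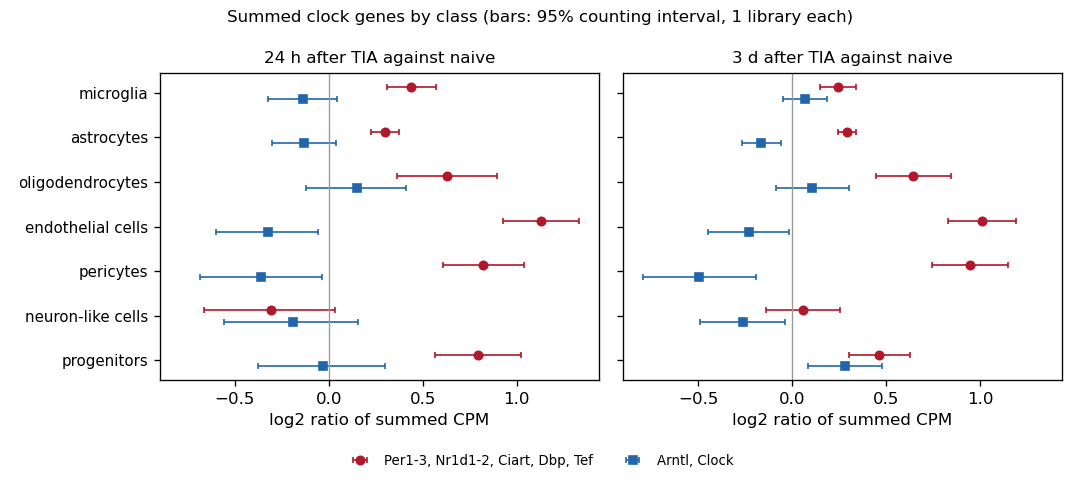
Log2 ratio of summed CPM against the naïve library for the 8 repressing and output genes (red circles) and for Arntl with Clock (blue squares) in each of the 7 classes, 24 h (left) and 3 d (right) after TIA. Bars are 95% counting intervals with 1 library per condition. Red points lie furthest right in endothelial cells (1.13 and 1.01) and pericytes (0.82 and 0.95), where the blue points lie left of 0.

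In endothelial cells and astrocytes Arntl, which encodes the BMAL1 subunit of the activating dimer, was the member of the positive limb that moved. In endothelial cells it was 79.0 CPM in naïve (122 UMIs), 40.1 CPM at 24 h (53 UMIs) and 40.9 CPM at 3 d (130 UMIs), with log2 ratios of -0.98 (-1.47 to -0.50) and -0.95 (-1.32 to -0.58). The naïve library was the high one, and both TIA libraries were alike. In astrocytes Arntl was 86.0, 67.8 and 71.8 CPM, with smaller ratios of -0.34 (-0.58 to -0.11) and -0.26 (-0.40 to -0.12). In pericytes it was 73.2, 56.2 and 49.1 CPM, with ratios of -0.38 (-0.95 to 0.18) and -0.58 (-1.10 to -0.04).

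Arntl was higher, not lower, in oligodendrocytes: 9.72 CPM in naïve, 25.0 CPM at 24 h and 15.9 CPM at 3 d, from 32, 30 and 55 UMIs. The log2 ratios were 1.36 (0.59 to 2.13) and 0.71 (0.06 to 1.39), and 5 cells held 43.8% of the UMIs in naïve and 50% at 24 h. In microglia Arntl was 28.5, 28.1 and 35.3 CPM, with a 3 d ratio of 0.31 (0.08 to 0.54). In progenitors it was 15.6, 21.7 and 22.1 CPM, with a 3 d ratio of 0.51 (0.02 to 1.01). In neuron-like cells it was 12.4, 5.21 and 9.21 CPM, where the 24 h value rests on 5 UMIs and its ratio, -1.24, had an interval of -2.91 to 0.05.

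Among naïve classes Arntl was highest in astrocytes (80.0 to 92.3 CPM), endothelial cells (65.6 to 94.3 CPM) and pericytes (54.9 to 95.8 CPM), whose intervals overlapped. Microglia followed at 25.0 to 32.2 CPM. Progenitors, neuron-like cells and oligodendrocytes were lowest and overlapped one another, the highest bound among them being 20.1 CPM.

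Clock, which encodes the partner of BMAL1, stayed close to its naïve level in most classes. In endothelial cells it was 102, 105 and 114 CPM, so that the lower positive limb there was Arntl alone. In pericytes Clock was 141, 110 and 103 CPM, with log2 ratios of -0.35 (-0.75 to 0.05) and -0.45 (-0.82 to -0.08). In progenitors it was 82.6, 74.3 and 97.1 CPM, with a 3 d ratio of 0.23 (0.02 to 0.45). In microglia, astrocytes, oligodendrocytes and neuron-like cells the Clock ratios ran from -0.24 to 0.14, and each interval reached 0.

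Per1, which encodes a repressor of the dimer and is also a direct glucocorticoid target, was higher at both times in every class but neuron-like cells, with an interval that reached 0 in progenitors at 3 d. In microglia it was 63.7 CPM in naïve (553 UMIs), 118 CPM at 24 h (350 UMIs) and 100 CPM at 3 d (1131 UMIs), with log2 ratios of 0.89 (0.70 to 1.09) and 0.65 (0.51 to 0.80). In astrocytes it was 23.8, 58.7 and 39.1 CPM, with ratios of 1.30 (1.00 to 1.60) and 0.71 (0.48 to 0.95). The 24 h library was the highest in both, and the 3 d astrocytes stood between 24 h and naïve, with a 3 d to 24 h ratio of -0.59 (-0.84 to -0.33).

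Vascular cells and oligodendrocytes had Per1 at nearly the same height at both times. In endothelial cells Per1 was 42.1, 84.8 and 78.1 CPM, with ratios of 1.01 (0.56 to 1.47) and 0.89 (0.49 to 1.31). In pericytes it was 37.3, 86.7 and 77.7 CPM, with ratios of 1.22 (0.58 to 1.90) and 1.06 (0.44 to 1.72). In oligodendrocytes, from 38, 41 and 107 UMIs, it was 11.5, 34.1 and 30.9 CPM, with ratios of 1.56 (0.89 to 2.24) and 1.42 (0.88 to 2.00). The naïve library was the low one in all of these classes.

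Per1 in progenitors was 7.65, 19.6 and 12.04 CPM, with ratios of 1.36 (0.44 to 2.24) and 0.65 (-0.04 to 1.37), so the 3 d value was not apart from naïve at this depth. In neuron-like cells it was 10.5, 5.21 and 11.4 CPM, and both intervals included 0. Microglia had the highest naïve level of Per1 (58.5 to 69.2 CPM). Endothelial cells and pericytes came next and overlapped, astrocytes overlapped pericytes, and the lowest classes were oligodendrocytes, neuron-like cells and progenitors, which overlapped too.

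Microglia comprised clusters 0 and 8, the latter led by Cxcl10, Ccl12 and Tnf. Per1 in cluster 0 was 58.9, 117 and 97.1 CPM, with log2 ratios of 0.99 (0.76 to 1.22) and 0.72 (0.55 to 0.89). In cluster 8 it was already 101 CPM in naïve, and 122 CPM at 24 h and 110 CPM at 3 d, with ratios of 0.26 (-0.15 to 0.68) and 0.12 (-0.21 to 0.47). Cluster 8 held 112 of the 1025 naïve microglia, 65 of 284 at 24 h and 282 of 1276 at 3 d, so the make-up of the class also differed between the libraries. Within cluster 0 alone Per1 was higher at both times, and whether the clusters differed was not tested.

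Per2 and Per3 encode the other period proteins, which enter the repressor complex. Per2 in astrocytes was 20.6, 29.9 and 35.4 CPM, with log2 ratios of 0.54 (0.15 to 0.92) and 0.78 (0.54 to 1.03). In pericytes Per2 was 9.67, 32.5 and 39.8 CPM, from 7, 33 and 60 UMIs, with ratios of 1.75 (0.55 to 3.17) and 2.04 (0.91 to 3.42). Both TIA libraries lay above naïve in these classes. In progenitors Per2 was 15.6, 29.9 and 21.9 CPM, and only the 24 h ratio, 0.94 (0.25 to 1.61), was clear of 0. Endothelial Per2 had 5, 12 and 32 UMIs, enough for a counted ratio at 3 d only, which was 1.64 (0.27 to 3.35). In microglia Per2 was 5.18, 4.06 and 3.37 CPM and in neuron-like cells 8.54, 5.21 and 7.63 CPM, with intervals of the ratio that included 0. In oligodendrocytes, with 1, 3 and 10 UMIs, it was too low to compare.

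Per3 was higher after TIA in the vascular cells and near its naïve level in microglia. It was 21.4, 46.2 and 40.6 CPM in endothelial cells, with log2 ratios of 1.11 (0.48 to 1.77) and 0.93 (0.37 to 1.52). In pericytes it was 13.8, 37.4 and 39.8 CPM, with ratios of 1.44 (0.41 to 2.61) and 1.53 (0.55 to 2.66). In microglia it was 15.7, 13.2 and 13.1 CPM and in oligodendrocytes 10.6, 9.99 and 10.4 CPM, with all intervals including 0. Astrocytes, the class with the highest naïve Per3 (110 to 124 CPM), had 117, 111 and 135 CPM, and only the 3 d ratio of 0.21 (0.10 to 0.32) was clear of 0. Progenitors had 19.0, 33.0 and 25.6 CPM, with a 24 h ratio of 0.80 (0.15 to 1.42). Neuron-like cells had 10.4, 3.13 and 10.5 CPM, and the 24 h ratio of -1.73 (-4.05 to -0.11) rests on 3 UMIs.

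Nr1d1 encodes REV-ERBα, a nuclear receptor that represses Arntl. In astrocytes it was 117 CPM in naïve (1040 UMIs), 214 CPM at 24 h (608 UMIs) and 112 CPM at 3 d (1580 UMIs). The 24 h library was the high one, with a log2 ratio of 0.87 (0.72 to 1.02), and 3 d was back at naïve, at -0.06 (-0.18 to 0.05). The ratio of 3 d to 24 h was -0.93 (-1.07 to -0.79). Over the same step Per3, Nr1d2, Dbp and Tef in astrocytes were higher at 3 d than at 24 h, with ratios from 0.23 to 0.45 whose intervals lay above 0, so the members did not keep 1 order between the times.

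In the vascular classes Nr1d1 stayed up at 3 d. Endothelial cells had 44.7, 78.0 and 80.0 CPM, with ratios of 0.80 (0.35 to 1.27) and 0.84 (0.45 to 1.24), and pericytes 109, 163 and 178 CPM, with ratios of 0.57 (0.18 to 0.98) and 0.71 (0.34 to 1.09). Progenitors had 10.0, 29.9 and 15.0 CPM, with a 24 h ratio of 1.58 (0.83 to 2.31), but 5 cells held 69.0% of the 29 UMIs at 24 h. In microglia Nr1d1 was 5.30, 5.75 and 4.52 CPM, in oligodendrocytes 4.25, 4.16 and 8.38 CPM, and in neuron-like cells 7.08, 3.13 and 5.08 CPM. Among these last classes only the 3 d ratio in oligodendrocytes, 0.98 (0.01 to 2.01), had an interval above 0. Naïve Nr1d1 was highest in astrocytes and pericytes, which overlapped, followed by endothelial cells.

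Nr1d2 encodes REV-ERBβ, the second of these receptors. It was 42.1, 74.2 and 74.6 CPM in endothelial cells, with ratios of 0.82 (0.35 to 1.29) and 0.83 (0.42 to 1.24), and 73.2, 105 and 126 CPM in pericytes, with ratios of 0.53 (0.04 to 1.03) and 0.78 (0.34 to 1.25). It was also the member besides Per1 that was higher at both times in microglia as a class, at 39.2, 53.8 and 45.9 CPM, with ratios of 0.46 (0.18 to 0.73) and 0.23 (0.03 to 0.43). Within cluster 0 of the microglia the ratios were 0.65 (0.34 to 0.95) and 0.21 (-0.01 to 0.43). Within cluster 8 they were -0.12 (-0.88 to 0.63) and 0.34 (-0.20 to 0.92). Astrocytes had 99.1, 94.9 and 130 CPM and progenitors 27.2, 39.2 and 39.6 CPM, and in both only the 3 d ratio was clear of 0, at 0.39 (0.27 to 0.51) and 0.54 (0.18 to 0.91). Oligodendrocytes had 27.9, 26.6 and 36.4 CPM and neuron-like cells 21.4, 18.8 and 22.2 CPM, not apart from naïve at this depth.

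Ciart encodes CHRONO, a repressor that binds BMAL1, and was sparse. In astrocytes it was 5.28, 12.3 and 12.2 CPM, from 47, 35 and 172 UMIs, with log2 ratios of 1.22 (0.55 to 1.88) and 1.21 (0.73 to 1.70). Astrocytes comprised clusters 1, 4 and 10. Cluster 1 had Ciart ratios of 0.43 (-0.70 to 1.46) and 0.88 (0.27 to 1.53), and cluster 4 had 2.04 (0.95 to 3.20) and 1.82 (0.94 to 2.83). Cluster 4 held 312 of the 894 naïve astrocytes, 110 of 239 at 24 h and 611 of 1426 at 3 d. Whether the clusters differed was not tested. In endothelial cells 3, 26 and 36 UMIs gave 1.94, 19.7 and 11.3 CPM, enough for a counted ratio at 3 d only, which was 2.54 (0.88 to 4.89). The naïve library was the low one in both classes. In pericytes Ciart had 0, 5 and 11 UMIs, in oligodendrocytes 1, 6 and 8 UMIs and in neuron-like cells 4, 0 and 15 UMIs, too few for a counted ratio. In microglia, with 25, 13 and 33 UMIs, both intervals included 0, as did that of progenitors at 3 d, with 12, 6 and 20 UMIs.

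Dbp, a PAR bZIP activator of D-box genes and a direct target of the dimer, moved most in endothelial cells. There it was 14.2 CPM in naïve (22 UMIs), 49.2 CPM at 24 h (65 UMIs) and 48.8 CPM at 3 d (155 UMIs), with log2 ratios of 1.79 (1.07 to 2.56) and 1.78 (1.13 to 2.49). Pericytes had 70.5, 101 and 121 CPM, with ratios of 0.53 (0.03 to 1.04) and 0.78 (0.32 to 1.26). Both TIA libraries were above naïve in both vascular classes.

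Elsewhere Dbp differed in direction. Astrocytes had 106, 103 and 138 CPM, with a 24 h ratio of -0.04 (-0.23 to 0.15) and a 3 d ratio of 0.38 (0.27 to 0.50). Microglia had 9.45, 7.44 and 6.47 CPM, and the 3 d ratio of -0.55 (-1.02 to -0.07) was below 0. Progenitors had 11.3, 29.9 and 19.2 CPM, with ratios of 1.40 (0.67 to 2.11) and 0.76 (0.20 to 1.33), and 5 cells held 62.1% of the 24 h UMIs. In oligodendrocytes (9.72, 7.49 and 7.81 CPM) and neuron-like cells (7.27, 5.21 and 6.35 CPM) the intervals included 0. Naïve Dbp was highest in astrocytes (99.4 to 113 CPM), then in pericytes (52.5 to 92.7 CPM).

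Tef encodes another PAR bZIP activator. It was 31.7, 78.8 and 62.0 CPM in endothelial cells, with ratios of 1.31 (0.81 to 1.83) and 0.97 (0.51 to 1.45). It was 33.2, 80.8 and 78.3 CPM in pericytes, with ratios of 1.28 (0.61 to 2.01) and 1.24 (0.60 to 1.94). In oligodendrocytes it was 35.8, 65.8 and 58.1 CPM, with ratios of 0.88 (0.45 to 1.30) and 0.70 (0.36 to 1.04). The TIA libraries were the high ones in these classes. In astrocytes Tef was 102, 103 and 121 CPM, with a 3 d ratio of 0.24 (0.13 to 0.36). In microglia (31.3, 27.1 and 28.1 CPM), neuron-like cells (37.2, 42.7 and 39.4 CPM) and progenitors (43.5, 50.5 and 51.6 CPM) the intervals included 0.

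**Figure D2:**
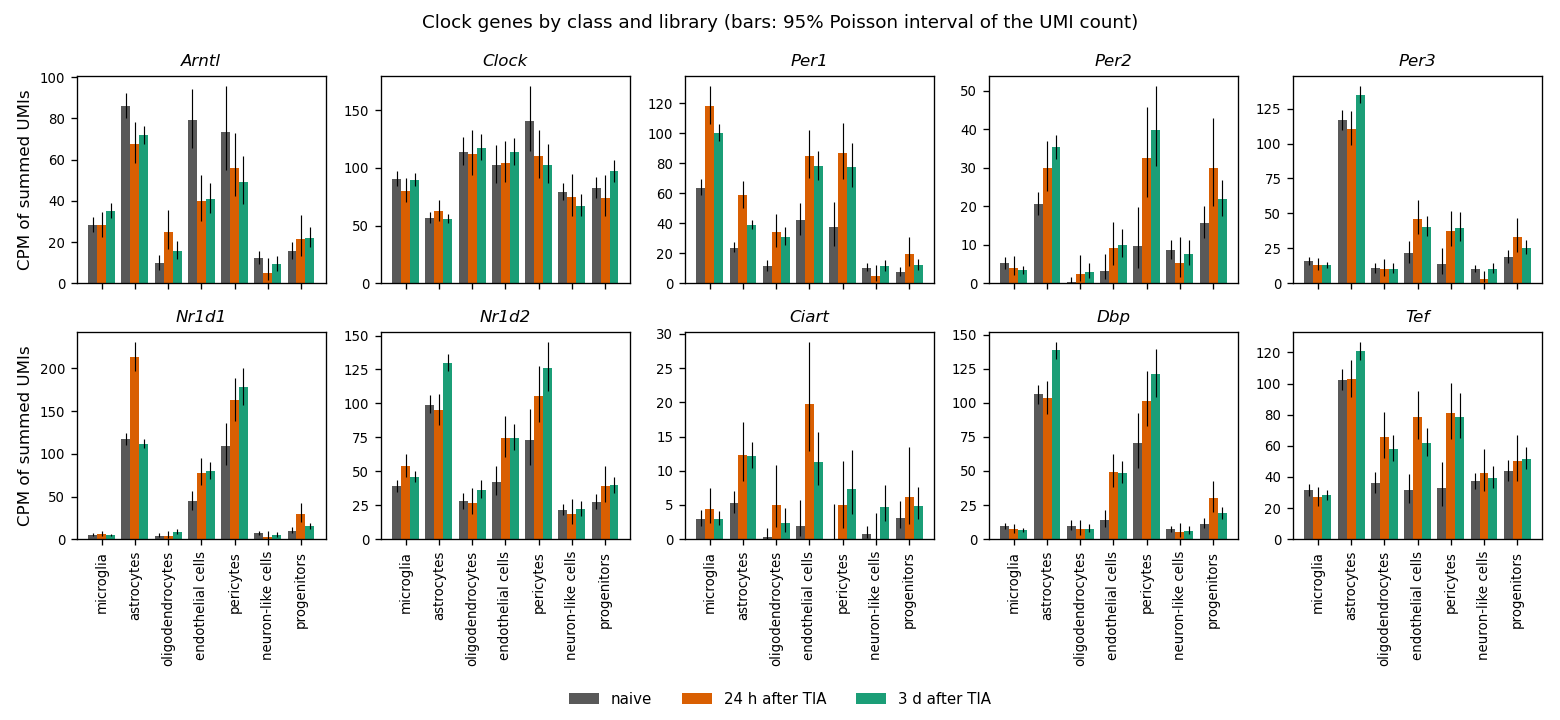
CPM of each of the 10 clock genes (1 panel per gene, each with its own vertical axis from 0) in the 7 classes, for the naïve library (grey), 24 h (orange) and 3 d (green) after TIA. Error bars are 95% Poisson intervals of the UMI count. Per1 bars are higher after TIA in 6 classes, while Arntl in endothelial cells is lower, 79.0 CPM in naïve against 40.1 and 40.9 CPM.

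Members past 2-fold were counted among those with at least 30 UMIs over both libraries of a comparison, beside the same share of all genes. In endothelial cells 4 of 8 were higher at 24 h and 3 of 10 at 3 d, and 0 were lower, where 2.63% of all genes were higher and 4.23% lower at 24 h, and at 3 d 5.26% were higher and 0.725% lower. The median log2 ratio of the counted members was 0.91 at both times, against 0.03 and 0.09 over all genes. In pericytes 4 of 9 were higher at each time and 0 lower, against 2.59% higher and 2.83% lower of all genes at 24 h, and 6.77% and 1.07% at 3 d. The member medians were 0.57 and 0.78, against 0.00 and 0.07.

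In microglia 0 of 10 members passed 2-fold at either time, against 2.46% higher and 2.71% lower of all genes at 24 h, and 1.74% and 0.943% at 3 d. The member medians, -0.10 and -0.09, lay near the all-gene medians of 0.05 and 0.06. In astrocytes 2 of 10 were higher at 24 h, Per1 and Ciart, and 1 of 10 at 3 d, Ciart, and 0 were lower. The shares of all genes were 2.95% higher and 6.35% lower at 24 h, and 1.67% and 1.02% at 3 d, and the member medians were 0.07 and 0.31, against 0.01 and 0.04. In oligodendrocytes 2 of 7 were higher at 24 h, Per1 and Arntl, and 1 of 8 at 3 d, Per1, and 0 were lower, against 3.67% and 6.81% of all genes at 24 h, and 4.30% and 1.21% at 3 d. The member medians were -0.02 and 0.54, against -0.03 and 0.05.

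In neuron-like cells 0 of 9 were higher and 4 of 9 lower at 24 h, when 0.974% of all genes were higher and 10.4% lower, and 0 of 9 passed in either direction at 3 d, against 0.492% and 2.16%. The 4 were Arntl, Per1, Per3 and Nr1d1, each with 3 or 5 UMIs at 24 h, and 0 passed when cells called doublets were left out. The member medians were -0.71 and -0.16, against -0.05 and 0.02. In progenitors 3 of 9 were higher at 24 h, Per1, Nr1d1 and Dbp, and 0 of 10 at 3 d, and 0 were lower, against 4.72% and 3.20% of all genes at 24 h, and 2.11% and 1.15% at 3 d. The member medians were 0.80 and 0.52, against 0.03 and 0.05. Without the 5 cells richest in each gene, 0 members passed in progenitors at 24 h and the log2 ratio of their summed repressing and output genes was 0.13 (-0.19 to 0.44). This cut takes a larger share of the 54 progenitors at 24 h than of the 227 in naïve. Without the 2% of cells richest in each gene, neither value moved beyond its error. Genes that reached 30 UMIs through a high TIA library alone, such as Ciart and Per2 in endothelial cells, enter these counts because they were high, so the counts are a description only.

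Markers of other classes moved within every class beside the clock genes, and their part in the clock results was not tested. In neuron-like cells at 24 h all 8 astrocytic markers together, most abundant Slc1a2, were 130 CPM against 928 CPM in naïve and 843 CPM at 3 d. The 8 endothelial markers, led by Cldn5, were 127, 11.5 and 18.4 CPM in the order naïve, 24 h and 3 d, and the 8 pericyte markers, led by Vtn, were 62.9, 11.5 and 30.5 CPM. Microglial and oligodendrocyte markers were lower at 24 h too. Each of these markers had UMIs in at least 1 library. In the cells at or below the median share of other-class marker UMIs, an alternative chosen after seeing the data, the log2 ratio of their summed repressing and output genes was 0.11 (-0.36 to 0.55).

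In pericytes the 8 astrocytic markers, again led by Slc1a2, were 702 CPM in naïve, 161 CPM at 24 h and 1783 CPM at 3 d, and the 12 neuronal markers, led by Meis2 and with Slc17a7 at 0, were 265, 16.8 and 87.6 CPM. In endothelial cells the astrocytic markers were 931, 564 and 1563 CPM, and the neuronal markers, led by Stmn2 and with Rbfox3 and Slc17a7 at 0, were 188, 70.4 and 143 CPM. In both classes oligodendrocyte markers were lower at both times, and microglial markers were lower at 24 h and higher at 3 d. In the cells at or below the median share of such markers the log2 ratios of the summed repressing and output genes were 1.01 (0.73 to 1.31) and 0.98 (0.73 to 1.24) in endothelial cells and 0.91 (0.62 to 1.21) and 0.74 (0.45 to 1.03) in pericytes. The positive limb there was -0.30 (-0.67 to 0.07) and -0.30 (-0.60 to 0.00) in endothelial cells, intervals that reached 0, and -0.48 (-0.93 to -0.02) and -0.53 (-0.96 to -0.10) in pericytes.

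In oligodendrocytes the 8 astrocytic markers, led by Slc1a3, were 426, 217 and 610 CPM, the 8 endothelial markers, led by Flt1, were 75.3, 8.32 and 154 CPM, and the 8 pericyte markers, led by Vtn, were 24.6, 9.16 and 106 CPM. In the oligodendrocytes at or below the median share, the log2 ratio of the summed repressing and output genes was 0.68 (0.30 to 1.05) at 24 h and 0.42 (0.12 to 0.73) at 3 d. In progenitors the astrocytic markers, led by Slc1a2, were 1415, 1806 and 2092 CPM and the pericyte markers, led by Vtn, were 92.9, 26.8 and 41.8 CPM, and oligodendrocyte markers moved more than either, being lower at both times. In the progenitors at or below the median share, the log2 ratio of the summed repressing and output genes was 0.30 (-0.13 to 0.72) at 24 h and 0.52 (0.25 to 0.80) at 3 d. In microglia the neuronal markers, led by Meis2, were 61.1, 17.2 and 24.0 CPM. Astrocytic markers there, led by Slc1a3, were 365, 421 and 492 CPM, and pericyte markers, led by Vtn, were 12.6, 19.6 and 18.5 CPM. Endothelial markers, led by Pecam1, were 38.7, 27.4 and 61.8 CPM, and progenitor markers, led by Hmgb2, were 201, 276 and 238 CPM. Oligodendrocyte markers were lower at both times in microglia and astrocytes, as were microglial markers in astrocytes. Astrocytes had more endothelial and pericyte markers at 3 d and more progenitor markers at 24 h.

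The wider clock list held 19 further genes: other E-box activators and ROR receptors, the Cry and Bhlhe repressors, Nfil3, Hlf, kinases and ligases of clock protein turnover, and output genes. For the counts of this list and the next lists, the shares of all genes past 2-fold given above ran over the classes from 0.974% to 4.72% higher and from 2.71% to 10.4% lower at 24 h, and from 0.492% to 6.77% higher and from 0.725% to 2.16% lower at 3 d. In endothelial cells 1 of 13 with enough UMIs was at least 2-fold higher and 1 lower at 24 h (2.63% and 4.23% of all genes), and at 3 d 2 of 16 were higher and 0 lower (5.26% and 0.725%). Hlf, the remaining PAR bZIP gene, was 31.1, 71.2 and 76.8 CPM there, with log2 ratios of 1.20 and 1.31. Rorb, a ROR receptor gene, was 74.5, 20.4 and 130 CPM, low at 24 h and high at 3 d like the astrocytic markers in these cells. In pericytes 0 of 9 were higher and 1 lower at 24 h (2.59% and 2.83%), and at 3 d 5 of 12 were higher and 0 lower (6.77% and 1.07%). Among them Usp2, a clock-controlled deubiquitinase gene, had a 3 d ratio of 1.56, Rorb -1.27 at 24 h and 1.36 at 3 d, and Bhlhe40 1.32 at 3 d. Usp2 and Bhlhe40 had 8 and 10 UMIs in naïve pericytes and entered the count through the high 3 d library, and Rorb was low at 24 h and high at 3 d like the astrocytic markers there too. The list medians were -0.13 and 0.25 in endothelial cells and 0.04 and 0.56 in pericytes. For its E-box activators and ROR receptors alone, the 24 h and 3 d medians in endothelial cells were -1.08 (0 of 2 above 0) and 0.71 (3 of 3). In pericytes they were -0.30 (1 of 3) and 0.35 (2 of 3), and in astrocytes 0.31 and 0.40 (3 of 4 at each time). At 3 d these genes thus did not follow the sum of Arntl and Clock in these classes.

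In astrocytes 0 of 17 wider clock genes passed 2-fold in either direction at either time, with medians of 0.36 and 0.23. Usp2 (81.0, 152 and 122 CPM) had the largest 24 h ratio, 0.91, followed by the repressor genes Bhlhe41 and Cry1, both at 0.81. In microglia 0 of 13 passed at 24 h and 1 of 14 was higher at 3 d, with medians of -0.08 and 0.15. That gene was Noct, which encodes a rhythmic phosphatase, with a ratio of 1.38 from 8 UMIs in naïve and 27 UMIs at 3 d, so that it entered the count through the high 3 d library. In oligodendrocytes 1 of 12 and 1 of 14 were higher and 0 lower, Usp2 at 24 h (1.22) and Npas2, a CLOCK paralog, at 3 d (2.08), with medians of 0.22 at both times. The Npas2 ratio rests on 31 UMIs at 3 d, 87.1% of them in 5 cells, against 7 UMIs in naïve. In progenitors 2 of 17 were higher at 24 h, Bhlhe40 (1.87) and Bhlhe41 (1.74), with 79.3% and 72.2% of their 29 and 18 UMIs at 24 h in 5 cells, and 2 of 18 at 3 d, among them Npas2 (1.03), with medians of 0.26 and 0.29. In neuron-like cells 3 of 15 were lower at 24 h, Usp2, Hlf and Rorb, when 10.4% of all genes were, and 0 of 18 passed at 3 d, with medians of -0.29 and 0.10.

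A list of 22 glucocorticoid targets was read beside the clock genes, since Per1 is itself such a target. At 24 h and 3 d its median log2 ratio was 1.25 and 0.76 in microglia, 1.01 and 0.60 in astrocytes, 3.37 and 1.64 in oligodendrocytes, 1.32 and 0.78 in endothelial cells, 1.02 and 0.81 in pericytes, 0.80 and 0.43 in progenitors, and -0.79 and 0.07 in neuron-like cells. The median was lower at 3 d than at 24 h in every class but neuron-like cells, and the 3 d to 24 h ratio of Per1 was -0.24 in microglia and -0.59 in astrocytes, both with intervals below 0. It was -0.14 in oligodendrocytes, -0.12 in endothelial cells, -0.16 in pericytes, -0.70 in progenitors and 1.13 in neuron-like cells, with intervals that included 0. The part of glucocorticoids in the Per1 values was not tested. At 24 h, 9 of 17 with enough UMIs were at least 2-fold higher in microglia, 11 of 21 in astrocytes, 17 of 19 in oligodendrocytes, 10 of 19 in endothelial cells, 7 of 14 in pericytes and 5 of 18 in progenitors, and in pericytes 2 were lower. In neuron-like cells 0 of 14 were higher and 7 lower, beside 0.974% and 10.4% of all genes. At 3 d the higher genes numbered 6 of 18, 7 of 21, 14 of 19, 9 of 20, 7 of 17 and 1 of 19 in the same order of classes, with 0 lower, and 1 of 17 was higher and 1 lower in neuron-like cells.

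Fkbp5, which encodes a co-chaperone of the glucocorticoid receptor, was 94.1, 659 and 403 CPM in microglia, with log2 ratios of 2.81 (2.69 to 2.93) and 2.10 (1.99 to 2.21). The 24 h library was the highest, as for Per1 in microglia, whose 3 d to 24 h ratio was -0.24 (-0.41 to -0.06). In astrocytes Fkbp5 had ratios of 4.58 and 3.08, and in endothelial cells 3.67 and 2.91. Nr3c1, which encodes the glucocorticoid receptor, was 326, 228 and 289 CPM in microglia, with ratios of -0.52 (-0.64 to -0.40) and -0.18 (-0.25 to -0.10), and Nr3c2, for the mineralocorticoid receptor, was 141, 110 and 136 CPM. At 24 h both were also lower in astrocytes and endothelial cells. Progenitors went the other way, with ratios of 0.25 (-0.20 to 0.68) and 0.29 (0.01 to 0.57) for Nr3c1. Their Nr3c2 ratios were 0.55 (0.09 to 0.99) and 0.47 (0.17 to 0.77), with 79.7% of the 59 UMIs at 24 h in 5 cells.

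Immediate early genes, which respond to stress and to tissue dissociation, were read beside Per1 as well. The median log2 ratio over those of the 20 listed genes with enough UMIs at 24 h and 3 d was 0.16 and 0.11 in microglia, -0.64 and -0.54 in astrocytes, 0.58 and 0.84 in oligodendrocytes, 0.02 and -0.01 in endothelial cells, 0.03 and 0.12 in pericytes, -0.59 and -0.10 in neuron-like cells, and 0.38 and -0.03 in progenitors. In astrocytes 1 of 19 was at least 2-fold higher and 8 lower at 24 h, and at 3 d 0 were higher and 3 lower. In oligodendrocytes, with the largest Per1 ratios, 5 of 16 were higher and 0 lower at 24 h, and at 3 d 6 of 19 were higher and 1 lower. The higher and lower genes at 24 h numbered 1 and 0 of 20 in microglia, 1 and 1 of 19 in endothelial cells, 1 and 1 of 16 in pericytes, 1 and 6 of 19 in neuron-like cells and 3 and 1 of 18 in progenitors. At 3 d they numbered 0 and 0 of 20 in microglia, and of 19 each 1 and 0 in endothelial cells, 1 and 1 in pericytes, 1 and 2 in neuron-like cells and 0 and 0 in progenitors.

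The genes most like Per1, Dbp and Arntl were ranked by Pearson correlation of log2(CPM + 1), centred within class, over 21 values (7 classes in 3 libraries) among 8320 genes. The values share library and depth, so r is a description. The genes most like Per1 were Hif3a (r = 0.94), Cebpd (r = 0.90), Stat3 (r = 0.89), Grina (r = 0.89) and Fkbp5 (r = 0.89). Of these, Hif3a, Cebpd and Fkbp5 were among the 22 genes of the glucocorticoid list, which was written with earlier results of these data known. Those most like Dbp were Nr2c2 (r = 0.88), Inpp5k (r = 0.84), Nt5c2 (r = 0.82), Tbc1d22a (r = 0.80) and Kif13b (r = 0.80). Those most like Arntl were Pon2 (r = 0.83), Rnpep (r = 0.81), Adam15 (r = 0.80), Nsmce3 (r = 0.79) and Lzts2 (r = 0.77). None of these 15 was a clock gene of either list.

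In the GENCODE annotation of GRCm38 the members were located as follows. Per1 (ENSMUSG00000020893) spans chr11:69095217-69109960 on the plus strand and Nr1d1 (ENSMUSG00000020889) chr11:98767932-98775333 on the minus strand. Arntl (ENSMUSG00000055116) spans chr7:113207465-113314126 and Dbp (ENSMUSG00000059824) chr7:45705088-45710203, both on the plus strand. Ciart (ENSMUSG00000038550) spans chr3:95878503-95882251 and Per3 (ENSMUSG00000028957) chr4:151003652-151044665, both on the minus strand, and Tef (ENSMUSG00000022389) chr15:81802421-81826863 on the plus strand.

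Because the repressing and output genes moved together in vascular cells, their promoters were searched for clock motifs. RefSeq promoter windows (GRCm38.p6, 250 bases before to 50 after the start) were matched for 9 of the 10 members, as 14 windows; Per2 was not matched. The E-box CACGTG was in 4 of the 14 windows, belonging to 3 members, Per1, Ciart and Tef, and in 7.15% of all 32851 windows. The D-box TTATGTAA was in 1 window, that of Per3, and in 0.938% of all windows. The E-box variant CACGTT was in 1 window, that of Nr1d1, and in 4.69% of all, and the ROR half-site AGGTCA was in 4 windows, against 16.3% of all. The glucocorticoid element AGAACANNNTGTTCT was in 0 of the 14 windows and in 3 of all windows. Both strands were searched, and a match is a description of the letters only.

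The stretches around the E-boxes and D-boxes are shown for 4 members that were higher after TIA in endothelial cells, 5′ to 3′ on the strand of the gene with the motif in capitals. They lie before the RefSeq start of their window, which for Per1, Ciart and Tef is inside the GENCODE span given above, at chr11:69098763-69098808 (plus) for Per1, chr3:95882247-95882364 (minus) for Ciart, chr15:81802526-81802571 (plus) for Tef and chr4:151044796-151044890 (minus) for Per3. Ciart held 3 E-boxes and Per3 held 2 D-boxes. Tef held 1 E-box in each of 2 windows, and only that of the window nearer the GENCODE start is shown.
Per1: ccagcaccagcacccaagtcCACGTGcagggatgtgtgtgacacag
Ciart: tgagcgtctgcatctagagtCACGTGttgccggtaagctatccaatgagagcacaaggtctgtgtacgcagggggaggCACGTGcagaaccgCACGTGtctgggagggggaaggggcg
Tef: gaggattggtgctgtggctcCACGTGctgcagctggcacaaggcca
Per3: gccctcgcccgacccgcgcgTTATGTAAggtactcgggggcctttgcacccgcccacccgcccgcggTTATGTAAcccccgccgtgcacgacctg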

How the data were processed

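Raw UMI counts were deposited by the authors, who made them with 10x Genomics 3′ chemistry, the mm10 genome and Cell Ranger, given as version 3.1.0 in the submitters' processing notes and as version 7.1.0 in the matrix headers. Counting by transcript ends needs no length scaling, but levels of different genes are not comparable. Cells with at least 500 genes and at most 7% mitochondrial UMIs were clustered in Seurat 5.3.0 (R 4.3.3; 2000 variable genes, 20 components, resolution 0.5, UMIs and mitochondrial share regressed out) and named from marker lists. Scrublet, run per library through scanpy 1.11.5, marked doublets (3.04% of naïve cells, 0.490% at 24 h, 2.93% at 3 d) and left out only as an alternative. UMIs were summed per class and library, and ratios of CPM were given with exact conditional binomial intervals (scipy 1.17.1, Python 3.11.15). The ratio routine was run on simulated Poisson counts without variation among cells, mice or libraries, so that run bears on counting error only. A library at 0 was set to 3 UMIs. The genes named were the 10 members in every class, at most 3 genes of largest absolute log2 ratio per other list and class, and the 5 genes most like Per1, Dbp and Arntl. Fkbp5, Nr3c1 and Nr3c2 values beyond that were named after their values were seen. Members and lists were chosen with earlier results of these data known. Both TIA libraries share the naïve control. Clusters without a clear marker set, and fibroblasts with 24 cells, were not compared. The summed levels of some marker lists in other classes, and 1 gene of the wider clock list, are not reported here.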

Additional observations from a re-analysis of the deposited data

Results flagged for a closer look

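Arntl differed in direction between classes at both times, with counting intervals on opposite sides of 0. At 24 h its log2 ratio to naïve was 1.36 in oligodendrocytes and -0.98 in endothelial cells, and at 3 d it was 0.71 and -0.95. The oligodendrocyte values rest on 32 UMIs in naïve and 30 UMIs at 24 h, with 43.8% and 50% of them in 5 cells. Without the 5 cells richest in each gene the summed positive limb of oligodendrocytes at 24 h was -0.23 in place of 0.15. This cut takes a larger share of the 72 cells at 24 h than of the 232 in naïve. Without the 2% of cells richest in each gene, that ratio did not move beyond its error. Per3 at 24 h was 1.44 in pericytes and -1.73 in neuron-like cells, the latter from 3 UMIs. Dbp at 3 d was 1.78 in endothelial cells and -0.55 in microglia. With 1 library per condition, none of these differences between classes was tested.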

How the results depend on the processing

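No paired analysis was possible because each condition had 1 library. Resolutions 0.2 and 1 and median-ratio scaling moved none of the 42 summed ratios and counts beyond their error. In the values below, R is the log2 ratio of summed repressing and output genes, P that of the positive limb and M the number of members past the fold. Without the 5 cells richest in each gene, a larger share of a small class, R was 0.19 in astrocytes, 0.36 in oligodendrocytes, -0.98 in neuron-like cells and 0.13 in progenitors at 24 h, and 1.23 in endothelial cells, 1.24 in pericytes and -0.17 in neuron-like cells at 3 d. P at 24 h was -0.62 in neuron-like cells, -0.23 in oligodendrocytes and -0.51 in progenitors, and M was 0 in progenitors at 24 h, and 5 in endothelial cells and 1 in progenitors at 3 d. Without the 2% of cells richest in each gene, added after seeing the data, M was 2 in neuron-like cells at 24 h and 1 in progenitors at 3 d. The other 40 results did not move by these rules under that cut. With cells limited to 1 UMI of other-class markers, enough cells (20) were left only in microglia at 3 d and neuron-like cells, where R was 0.79 in microglia and 0.51 (24 h) and -0.62 (3 d) in neuron-like cells. P was -0.19 in microglia and turned to 0.48 in neuron-like cells at 3 d, and M was 0 in neuron-like cells at 24 h; the other classes gave no value. In cells at or below the median share of such markers, also added after seeing the data, R at 24 h was 0.24 in microglia, 0.11 in neuron-like cells and 0.30 in progenitors, and at 3 d 0.42 in oligodendrocytes and 0.74 in pericytes. P was 0.054 in microglia at 24 h and -0.28 in astrocytes at 3 d. M at 24 h was 1 in astrocytes, 2 in endothelial cells, 1 in microglia, 0 in neuron-like cells, 2 in pericytes and 0 in progenitors, and 2 in pericytes at 3 d. Without Per1, likewise added, R in microglia was 0.086 at 24 h and turned to -0.062 at 3 d. By mean CPM per cell, P was -0.49 in neuron-like cells at 3 d and R 1.03 in progenitors at 24 h. Without regression, R was 0.23 in progenitors at 3 d and M 1 at 24 h, and leaving out only cells that fail both limits gave M of 1 there. Without doublets M was 0 in neuron-like cells at 24 h. With a minimum of 100 UMIs, fewer genes could count, and M at 24 h was 1 in astrocytes, 2 in endothelial cells, 2 in pericytes and 0 in neuron-like cells, oligodendrocytes and progenitors, and at 3 d 1 in endothelial cells and 2 in pericytes. At 1.5-fold, M at 24 h was 7 in endothelial cells, 2 in microglia and 5 in progenitors, and at 3 d 3 in astrocytes, 9 in endothelial cells, 2 in microglia, 4 in oligodendrocytes, 7 in pericytes and 3 in progenitors. Apart from settings whose construction shows it, the cause of these shifts was not tested. Fewer than 30 UMIs, over at least 1 of the comparisons with naïve, were found for Ciart in all classes but microglia and astrocytes, Per2 in oligodendrocytes and endothelial cells, and Nr1d1 in oligodendrocytes.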
